A study of Mus musculus with 12 samples.

Results

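The transcripts described here encode the translation initiation factors (genes named Eif1 to Eif6 with their suffixes) and the machinery that shortens, uncaps, degrades or silences mRNA: the CCR4-NOT deadenylase (Cnot genes), the PAN2-PAN3 deadenylase, decapping factors (Dcp1a, Dcp2, Edc3, Edc4), the XRN exonucleases, nonsense-mediated decay factors (Upf and Smg genes), the Argonautes and the TNRC6 proteins. They were chosen by gene symbol in 3 lists of m6A peaks, without use of any measured value, and the kinase gene Eif2ak2 was left out. Of 9142 transcripts with a peak in at least 1 list, 80 were members, with 486 of 40978 peaks. The lists came from meRIP-seq, in which RNA fragments pulled down by an anti-m6A antibody (IP) are sequenced beside the input RNA. Mouse dendritic cells (DC) of 3 kinds were profiled, with 2 replicates each, 12 libraries in all. Immature DC (imDC) were grown for 5 days from marrow pooled from several C57BL/6 mice of 6 weeks, in GM-CSF at 10 ng/ml and IL-4 at 1 ng/ml, and selected by CD11c. Mature DC (maDC) were imDC given LPS at 100 ng/ml for 24 h, and regulatory DC (DCreg) were maDC co-cultured with spleen endothelial cells for 7 days. Culture time, co-culture and DC type cannot be told apart, and the study's methods call the replicates biological but do not say whether each had its own pool of mice, so the spread between replicates may be partly technical.

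Initiation of translation begins when eIF4E binds the 5′ cap, eIF4G bridges it to the helicase eIF4A and to eIF3, and the small ribosomal subunit arrives with eIF2 and the initiator tRNA. Kinases that phosphorylate eIF2α slow this step under stress, and 4E-BP proteins hold eIF4E away from eIF4G. Decay of most mRNAs starts with the poly(A) tail, which PAN2-PAN3 and CCR4-NOT shorten, and proceeds by decapping through DCP1-DCP2 and digestion by XRN1. m6A is linked to both ends of this path, since YTHDF2 recruits CCR4-NOT to methylated mRNA and eIF3 can bind m6A in the 5′UTR; the values below concern m6A on the mRNAs that encode these factors, not its effect on their targets.

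Each list gives the log2 enrichment of IP over input per replicate, and holds only peaks at or above 1 in both replicates. Read depth was not given in the files, so a transcript with no peak can be one that is not methylated, one that is rare or one that was sequenced too shallowly. The libraries did not group by DC type. Over 5332 sites with a peak in all 3 lists, imDC replicate 2 correlated with maDC replicate 1 at r = 0.875, above imDC replicate 1 with imDC replicate 2 (r = 0.367), the maDC replicates (r = 0.689) and the DCreg replicates (r = 0.508). Over the 78 such sites in member transcripts the 4 values were 0.859, 0.442, 0.657 and 0.574. imDC replicate 1 (r = 0.340 to 0.440 with each other column) and DCreg replicate 2 (r = 0.262 to 0.508) stood apart from the rest, so the named differences are given with the range they take when each replicate in turn is left out. These correlations share transcripts and the threshold of the lists and are descriptions. By the labels the first replicates of imDC and maDC were made with a TruSeq kit and the remaining 4 with NEBNext Ultra, whereas the study's methods name NEBNext Ultra alone. Columns were matched to DC types and replicates by the labels; neither their order nor an exchange of a library or column between imDC and maDC could be checked here, and an exchange would change what every imDC and maDC value stands for. Peaks were listed for 9 (imDC), 10 (maDC) and 6 (DCreg) of 11 DC markers, and Itgax, which encodes CD11c, had a peak in all 3 lists. Of 11 endothelial and stromal markers, 1, 3 and 5 had a peak, while Pecam1 and Cdh5 had none in any list. Col1a1, Col1a2 and Col3a1 had a peak in DCreg alone, Kdr and Vwf in maDC and DCreg, and Eng in imDC and maDC but not in DCreg. Of 10 macrophage and neutrophil markers, 3, 4 and 6 had a peak, with Mrc1 and Cd163 in DCreg alone and Elane in imDC alone. The part of RNA from such other cells in the DCreg values was not tested.

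The consensus GGACT, in which the A is the methylated base, lay in 31.9% of the 160 member peaks of DCreg (exact 95% interval 24.7 to 39.7%). The share was 31.1% of 196 peaks for maDC (24.7 to 38.1%), and for imDC it was 27.7% of 130 (20.2 to 36.2%). Over all peaks the shares were 28.0% for DCreg, 33.1% for maDC and 31.4% for imDC, each inside the interval of the members. The sequences below are 27-base stretches of RefSeq transcripts on GRCm38 (mm10), 5′ to 3′, with the motif in capitals. They come from peaks that carried the motif and that the values below return to. A motif under a peak is a description and does not place the methylated base. The first 6 stretches lie under peaks present in all 3 lists: beside the stop codon of Eif4g1 (chr16:20692437-20692463 and chr16:20692484-20692510, exon 33 of 33, 3′UTR), in the coding sequence of Pan2 (chr10:128310310-128310336, chr10:128310380-128310406 and chr10:128310398-128310424, exon 7 of 26) and in the coding sequence of Edc3 (chr9:57727296-57727322, exon 4 of 7).
Eif4g1 first motif: ggtggggcaggGGACTtggagccatgg
Eif4g1 second motif: gccagccgcctGGACTgcaggggggcg
Pan2 upstream motif: cgtgcatctctGGACTgattcccctga
Pan2 middle motif: ccctgtcttgtGGACTccttgccgcct
Pan2 downstream motif: ttgccgcctctGGACTggagccaggat
Edc3: ctcccagacacGGACTttgactttgag

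The next 5 stretches lie in coding exons under peaks of maDC and DCreg in transcripts that had no peak in imDC: Eif4e (chr3:138553668-138553694, exon 7 of 8, and chr3:138555401-138555427, exon 8), Eif2a (chr3:58548508-58548534, exon 10 of 14), Eif2ak1 (chr5:143899094-143899120, exon 14 of 15) and Cnot7 (chr8:40507519-40507545, minus strand, exon 3 of 7). The last stretch is from the 3′UTR of Eif4e3 (chr6:99626848-99626874, minus strand, exon 7 of 7), whose neighbouring peak was the only member peak past the threshold between DC types.
Eif4e first motif: gatagcaatatGGACTactgagtgtga
Eif4e second motif: aggaaaggttaGGACTtcctccgaaga
Eif2a: gtttgactttgGGACTggtcctcgcaa
Eif2ak1: aacaggcgtaaGGACTggtcggatacc
Cnot7: taatccagctcGGACTgacctttatga
Eif4e3: ccgggccattaGGACTcaaagtggcag

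More member transcripts carried a peak in maDC than in the other types: 76 of 80 (95%) in maDC, 71 (88.8%) in DCreg and 64 (80%) in imDC. Over all 9142 transcripts the shares were 88.1%, 72.8% and 66.1%, so the same order held in the whole data. A peak in all 3 lists was found in 56 members (70%, exact 95% interval 58.7 to 79.7%) against 50.2% of all transcripts. Members with a peak in imDC held a mean of 2.03 peaks each, those of maDC 2.58 and those of DCreg 2.25, against 1.74, 2.15 and 1.97 over all transcripts. Among the 62 members with a peak in both maDC and imDC, 29 held more peaks in maDC (46.8%), 9 fewer (14.5%) and 24 as many (38.7%), against 44.5%, 10.1% and 45.5% of the 5562 transcripts marked in both. Each DC type has a single list called jointly on its replicates, so the replicate error of these counts could not be estimated and none was tested.

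**Figure D1:**
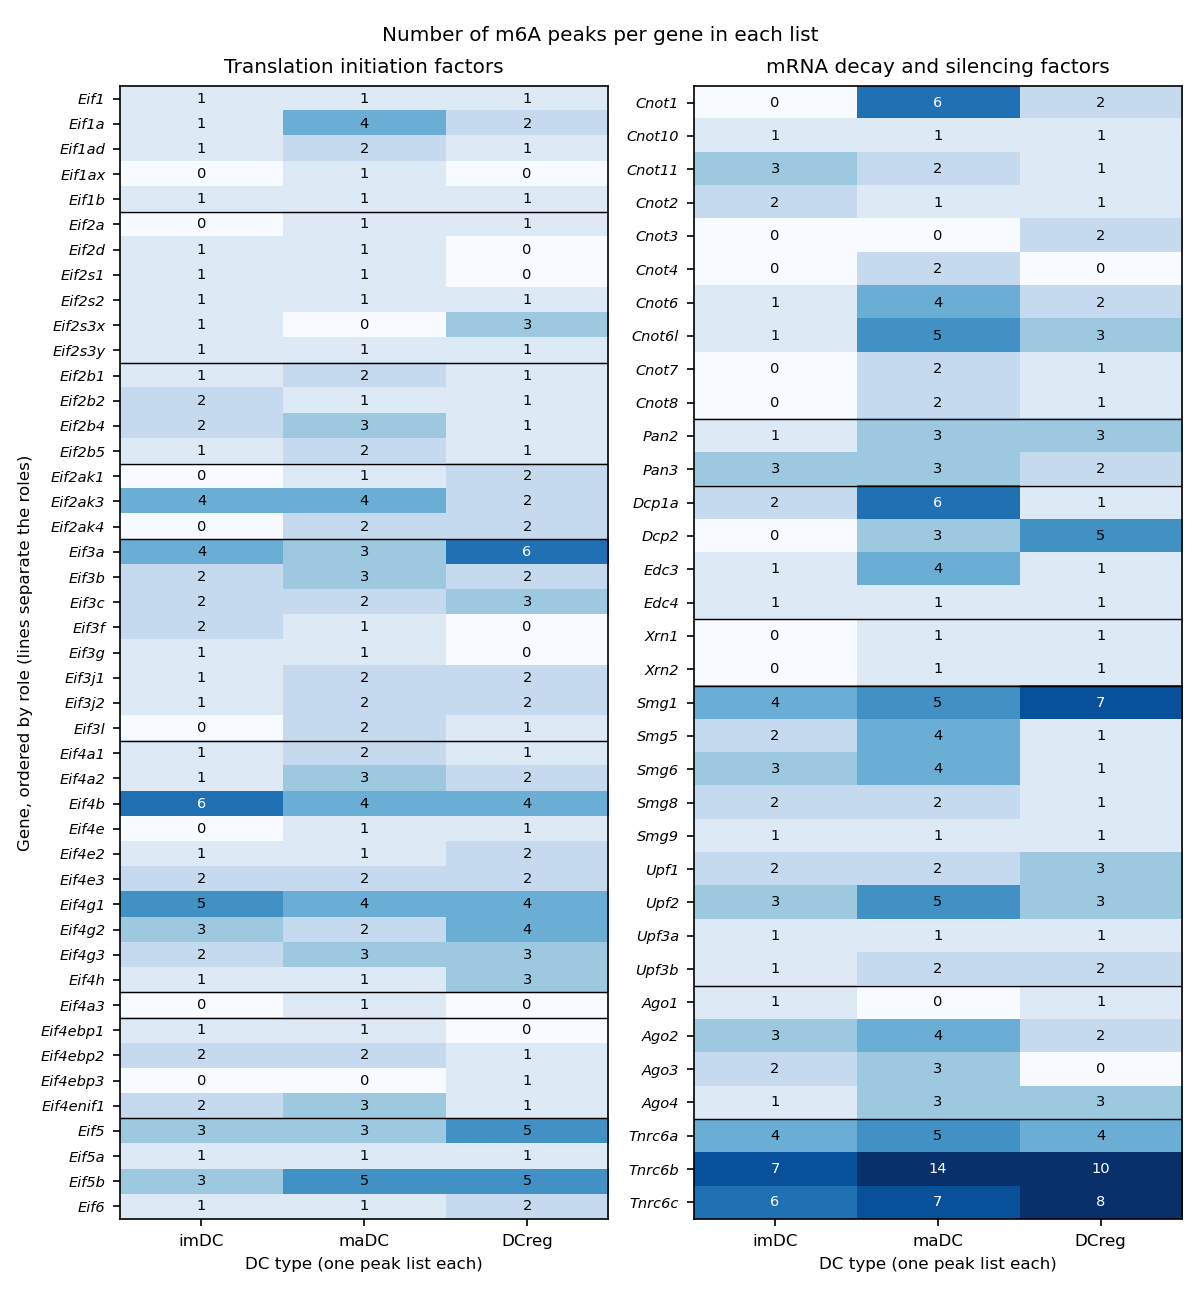
Number of m6A peaks per gene in the list of each DC type, for member genes ordered by role (left, initiation factors; right, decay and silencing factors; 1 decay gene is not drawn). Tnrc6b holds the most (7, 14 and 10), and the CCR4-NOT genes hold 25 in maDC against 8 in imDC, where all transcripts hold 17316 and 10517.

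A peak in maDC but not in imDC was found in 14 members (17.5%, against 27.2% of all transcripts). The reverse was found in 2, Ago1 and Eif2s3x (2.5% against 5.24%). Of the 14, 7 belong to the deadenylation, decapping and exonuclease groups (Cnot1, Cnot4, Cnot7, Cnot8, Dcp2, Xrn1 and Xrn2). Those groups hold 10 CCR4-NOT, 2 PAN2-PAN3, 4 decapping and 2 XRN genes. A further 2 are among the 3 eIF2α kinase genes (Eif2ak1 and Eif2ak4), and 5 carry the symbol of an initiation factor (Eif1ax, Eif2a, Eif3l, Eif4a3 and Eif4e). Of these, Eif4a3 was grouped apart from the initiation factors. None was an Upf or Smg gene of nonsense-mediated decay, or an Argonaute, TNRC6 or PAN2-PAN3 gene. Between maDC and DCreg, 9 members had a peak in maDC alone of the pair (11.2% against 24.2%): Ago3, Cnot4, Eif1ax, Eif2d, Eif2s1, Eif3f, Eif3g, Eif4a3 and Eif4ebp1. Ago1, Cnot3, Eif2s3x and Eif4ebp3 had the reverse (4 members, 5% against 8.93%). DCreg and not imDC was found in 13 members (16.2% against 20.4%), and imDC and not DCreg in 6 (7.5% against 13.7%), namely Ago3, Eif2d, Eif2s1, Eif3f, Eif3g and Eif4ebp1. No member had its peaks in imDC alone (3.02% of all transcripts did), 3 (Cnot4, Eif1ax and Eif4a3) had them in maDC alone (13.5%) and 2 (Cnot3 and Eif4ebp3) in DCreg alone (6.71%). Each of these shares of the members lay below that of all transcripts. The share of all transcripts was above the exact 95% interval of the members for maDC and not DCreg (5.28 to 20.3%) and for maDC alone (0.78 to 10.6%). For the others it was inside the interval. These counts depend on each other and on the larger share of members in all 3 lists, and were not tested.

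Counts within a role group are over the genes with a peak in at least 1 list. Among the cap-binding eIF4F genes, 9 of 10 had peaks in all 3 lists, and the group held 22 imDC, 23 maDC and 26 DCreg peaks. Eif4g1, the scaffold of the complex, carried a strong peak over its stop codon and the start of its 3′UTR, on the motifs printed above. Its values were 3.73 and 4.15 in imDC, 4.15 and 4.03 in maDC and 3.67 and 3.83 in DCreg, so the imDC values overlapped those of both other types, the DCreg values lay below those of maDC, and the replicates were close. Its other peaks, in the coding sequence, lay between 1.04 and 2.98. Eif4g2, a relative of Eif4g1 that does not bind eIF4E, was marked instead in its 5′UTR (chr7:111082831-111082990 in maDC, exon 1), at 4.98 and 3.71 in imDC, 4.28 and 4.96 in maDC and 3.73 and 3.22 in DCreg. Both DCreg values were below both maDC values there, and DCreg held 2 further peaks in the 3′UTR, at 2.10 and 1.89 and at 3.18 and 3.51, where imDC held 1 at another position (1.16 and 1.74) and maDC none. Eif4a1, the helicase, had its common peak at the start of the coding sequence, listed over the start codon in imDC and maDC, with 2.73 and 2.35 in imDC, 2.77 and 2.03 in maDC and 3.72 and 4.17 in DCreg, the DCreg values lying above the other 4.

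Eif4e itself, the cap-binding protein, had a single coding-sequence peak in maDC (1.93 and 1.66) and in DCreg (2.74 and 1.72), with 2 motifs, and none in imDC. Its relative Eif4e2 was marked in the 3′UTR in every list, and DCreg held a further Eif4e2 peak at 2.62 and 4.81. Among the proteins that bind eIF4E, Eif4ebp1 had a 3′UTR peak in imDC (1.49 and 1.28) and maDC (1.15 and 1.52) and none in DCreg, all 4 values being near the minimum of the lists. Eif4ebp2 kept its 3′UTR peak in all 3 lists (3.48 and 2.75 in imDC, 2.64 and 2.34 in maDC, 2.52 and 3.44 in DCreg), and its start-codon peak (3.62 and 2.38 in imDC, 2.23 and 2.25 in maDC) was not in the DCreg list. Eif4ebp3 had a single weak peak, in DCreg, at 1.16 and 1.38.

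Among the eIF2 genes, Eif2s2, which encodes the β subunit, had a start-codon peak at 3.44 and 1.56 in imDC, 1.14 and 3.93 in maDC and 3.94 and 4.39 in DCreg. Its replicates in imDC and in maDC differed by more than the means of any pair of types. Eif2s1, which encodes eIF2α, the subunit that the stress kinases phosphorylate, had its peak at the start codon in imDC (1.44 and 1.28) but in the coding sequence in maDC (2.11 and 1.97), and none in DCreg. It was the only member marked in both imDC and maDC with no site in common. Eif2a, a different factor that can deliver initiator tRNA independently of eIF2, had a motif-bearing coding peak at 3.56 and 3.19 in maDC and 4.05 and 2.61 in DCreg. All 4 eIF2B genes with a peak, which encode the exchange factor of eIF2, were marked in all 3 lists.

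Of the eIF2α kinases, Eif2ak3 (PERK, the kinase of endoplasmic reticulum stress) was marked in every list, with 4, 4 and 2 peaks. Its coding peak was at 2.60 and 3.36 in imDC, 3.04 and 3.66 in maDC and 3.88 and 2.53 in DCreg, with overlapping values. Eif2ak4 (GCN2, which senses uncharged tRNA) had 2 coding peaks, at 2.11 and 2.15 and at 3.11 and 2.63 in maDC, and at 1.90 and 2.29 and at 3.16 and 2.03 in DCreg, the levels of the 2 types overlapping. Eif2ak1 (HRI, the heme-regulated kinase) had a stop-codon peak at 3.21 and 3.36 in maDC and at 1.94 and 1.15 in DCreg, so both maDC values were higher. Neither of these last 2 genes had a peak in imDC.

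Eif3a, the largest eIF3 subunit, was marked over the later part of its coding sequence and nowhere else in the transcript, by 4 peaks (imDC), 3 (maDC) and 6 (DCreg). The strongest stood at 3.12 and 3.50 in imDC, 4.71 and 4.39 in maDC and 4.02 and 4.24 in DCreg, and the lists divided the stretch at different points. Of the eIF3 genes, 8 were marked in maDC, 7 of them in imDC and 6 in DCreg, where Eif3f and Eif3g had no peak, and 6 further eIF3 genes had none in any list. The Eif3j1 and Eif3j2 peaks had the same values in maDC and in DCreg. Their coding sequences are 99.2% identical and 90.2% of 50-base stretches of the Eif3j1 transcript also occur in that of Eif3j2, so their peaks cannot be assigned to 1 gene. Eif5b, the factor that joins the ribosomal subunits, carried coding peaks in all lists, with 3, 5 and 5 peaks. Its coding peak with 2 GGACT motifs was at 2.53 and 2.87 in imDC, 3.21 and 4.65 in maDC and 4.24 and 2.91 in DCreg, the imDC values lying below the other 4. Eif6, which keeps the ribosomal subunits apart, had its 5′UTR peak at 3.58 and 3.01 in imDC, 3.02 and 2.67 in maDC and 3.05 and 3.59 in DCreg, where the DCreg values lay just above those of maDC and the imDC values overlapped both. Eif1 and Eif5a had no site common to DCreg and the other types: Eif1 was marked at the start codon in imDC (3.52 and 2.23) and maDC (2.27 and 1.56) and in the coding sequence in DCreg (1.03 and 2.41), and Eif5a in the 5′UTR in imDC (2.32 and 2.25) and maDC (2.48 and 1.61) and at the start codon in DCreg (also 1.03 and 2.41).

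CCR4-NOT genes held 25 peaks in maDC (9 of 10 genes), 14 in DCreg (9 genes) and 8 in imDC (5 genes). Over all transcripts the lists held 17316, 13145 and 10517 peaks, the same order, and 88.1%, 72.8% and 66.1% of transcripts had a peak. The group was not tested against these. Cnot1, the scaffold of the complex, had 6 peaks in maDC, 2 in DCreg and none in imDC. The site shared by maDC and DCreg with the larger gap, in the coding sequence, was at 1.05 and 1.17 in maDC and 2.51 and 1.98 in DCreg, with both maDC values lower. The other shared site ran the other way on the means and overlapped, at 1.44 and 2.65 in maDC and 1.83 and 1.17 in DCreg. The nuclease genes differed: Cnot7 had 2 peaks in maDC (2.20 and 1.79 in the 5′UTR, 2.21 and 2.12 in the coding sequence), the second also in DCreg (2.24 and 1.24), and Cnot8 had 2 in maDC and 1 in DCreg. Cnot6 and Cnot6l, the other nuclease pair, were marked at their 5′ ends in every list and in the 3′UTR in maDC and DCreg only. At the 5′UTR of Cnot6 (chr11:49712448-49712649 in imDC, exon 1) the values were 4.35 and 4.08 in imDC, 3.71 and 3.52 in maDC and 2.90 and 3.22 in DCreg, with no overlap between any 2 types. At the 5′UTR of Cnot6l they were 1.60 and 1.54, 2.42 and 2.20, and 2.08 and 1.14, the maDC values being the highest. Cnot4, a ubiquitin ligase associated with the complex, had a strong stop-codon peak in maDC (3.85 and 3.09) and none in the other lists. Cnot3, a regulatory subunit, had 2 peaks in DCreg alone (1.16 and 2.38, and 1.54 and 3.34).

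Pan2, the nuclease of the PAN complex, had its strongest peak on the 3 motifs in exon 7, at 2.75 and 3.43 in imDC, 3.78 and 4.63 in maDC and 3.29 and 1.61 in DCreg. Both maDC values were above the other 4. Pan3, its partner, was marked in its 3′UTR in all lists, at 1.92 and 4.30 in imDC, 4.26 and 3.22 in maDC and 3.10 and 2.59 in DCreg, and the imDC replicates spanned the range of the other types.

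Decapping genes held 4 (imDC), 14 (maDC) and 8 (DCreg) peaks, beside 10517, 17316 and 13145 over all transcripts, the same order. Dcp1a, the activator of the decapping enzyme, had 6 peaks in maDC, 5 of them in the 3′UTR and 1 over the stop codon, against 2 in imDC and 1 in DCreg. At its site common to the 3 lists (chr14:30523316-30523618 in maDC, exon 10) the values were 1.25 and 2.84 in imDC, 2.88 and 4.35 in maDC and 2.67 and 1.28 in DCreg, both maDC values lying above the other 4. The imDC peak there covered bases 1863 to 2465 of the transcript, a run that maDC divided into peaks at 1876 to 2178 and 2179 to 2462. The peak counts and these values thus depend in part on where the run was divided. Dcp2, the enzyme, had no peak in imDC, and its stop-codon peak was at 2.27 and 3.13 in maDC and 2.60 and 1.47 in DCreg. Edc4, a scaffold of the decapping complex, had a single 5′UTR peak (chr8:105880899-105881053 in maDC, exon 1), at 2.60 and 3.28 in imDC, 3.02 and 3.12 in maDC and 1.74 and 1.36 in DCreg, with both DCreg values below the other 4. Edc3 carried its motif-bearing coding peak in every list, at 1.19 and 3.73, 3.18 and 3.00, and 3.36 and 1.94. Xrn1, the exonuclease that follows decapping, had 1 weak coding peak in maDC (1.56 and 1.01) and a different one at the start codon in DCreg (2.01 and 1.55), and Xrn2, its nuclear relative, 1 coding peak at 1.84 and 2.34 in maDC and 1.74 and 1.76 in DCreg.

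**Figure D2:**
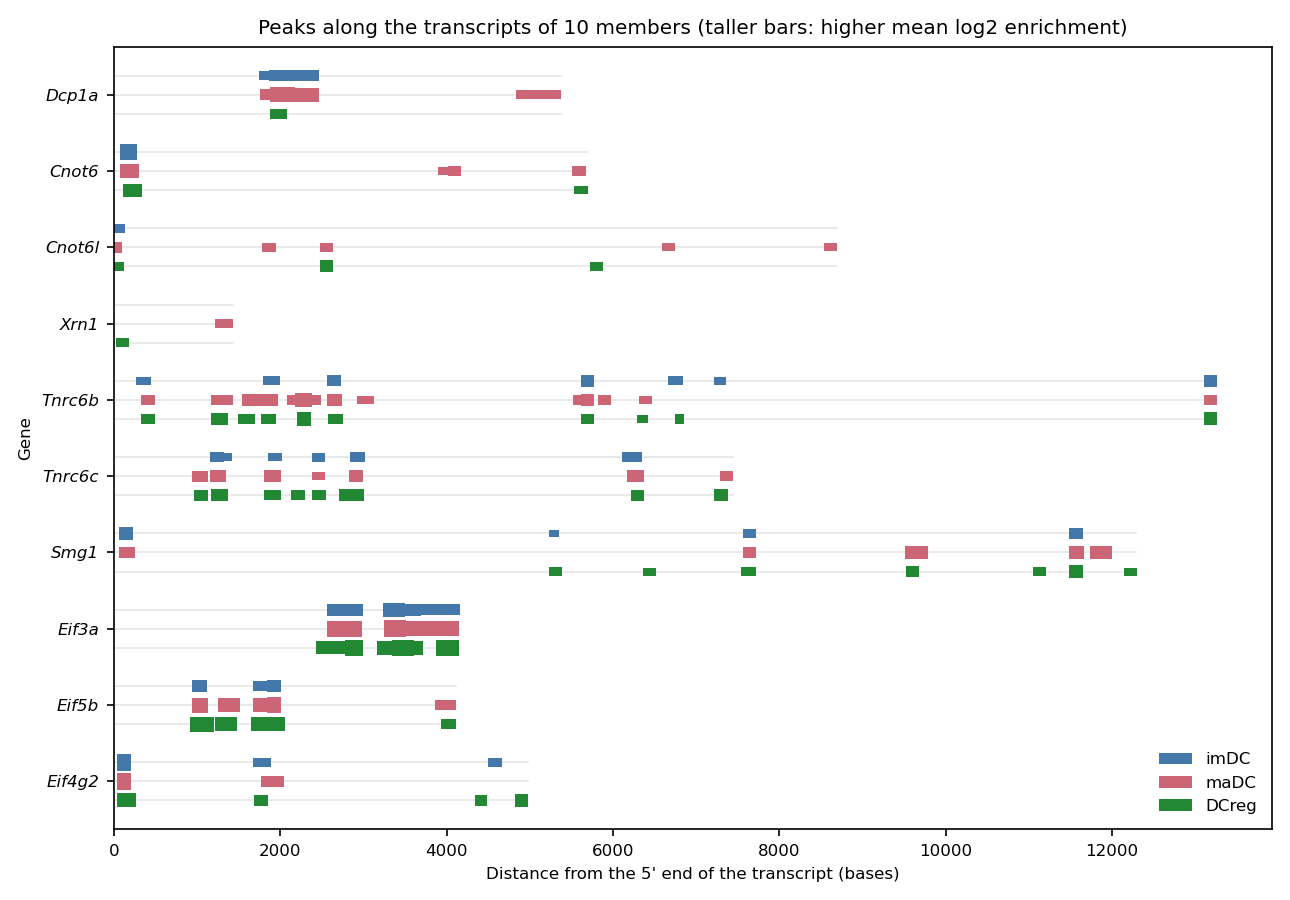
Position of each peak (bar) along the transcripts of 10 members, in bases from the 5′ end, by DC type; bar height rises with the mean log2 enrichment and grey lines end at the last peak, not at the end of the transcript. The 3 distal peaks of Dcp1a appear in maDC alone, Eif3a is marked over one stretch in all 3 types, and the 5′-end peak of Smg1 is absent from the DCreg list.

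All 10 nonsense-mediated decay genes with a peak had one in each list, and the lists held 23 (imDC), 28 (maDC) and 24 (DCreg) of their peaks. Upf1, the central helicase, held the strongest member peak of maDC and of DCreg, in its 3′UTR (chr8:70332138-70332394 in imDC, exon 24), at 5.16 and 4.07 in imDC and 4.62 and 4.83 in maDC. In DCreg the same run was listed as 2 adjacent peaks, at 5.11 and 5.67 and at 5.32 and 4.67, and the imDC values overlapped those of both other types. Smg1, the kinase of Upf1, had 4, 5 and 7 peaks, and its 5′UTR peak (3.23 and 2.93 in imDC, 2.55 and 2.66 in maDC) was not in the DCreg list. Its 3′UTR site common to the 3 types was at 2.05 and 2.63, 2.67 and 3.68, and 3.92 and 2.46. Smg5, which helps recruit decay enzymes, had its strongest peak in the coding sequence, at 3.31 and 3.82 in imDC, 3.48 and 3.97 in maDC and 4.56 and 3.45 in DCreg, with overlap throughout.

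Of the silencing proteins that bring CCR4-NOT to microRNA targets, the 3 TNRC6 genes held 17, 26 and 22 peaks. Tnrc6b had the most of any member (14 in maDC, 10 in DCreg and 7 in imDC), over its coding sequence and 3′UTR. At its strongest maDC peak, a motif-bearing coding site, maDC stood at 3.10 and 4.19 and DCreg at 4.36 and 2.44, and imDC had no peak there. Tnrc6c followed with 21 peaks in all, Smg1 with 16, Eif4b with 14 and Eif3a, Eif4g1, Eif5b and Tnrc6a with 13 each. Ago2, the Argonaute that cleaves targets, was marked in its 3′UTR in every list, and the common 3′UTR site was at 1.36 and 2.49 in imDC, 3.18 and 3.20 in maDC and 2.93 and 2.94 in DCreg, with both imDC values below the other 4. Ago3 had peaks in imDC and maDC and none in DCreg, and Ago1 in imDC and DCreg at different places.

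Member peaks were set against all peaks of each list by their place in the transcript. The coding share was 50% of imDC peaks (exact 95% interval 41.1 to 58.9%) against 37.3% over all peaks, and 45.9% of maDC peaks (38.8 to 53.2%) against 38.1%, both below the interval. For DCreg it was 51.9% (43.8 to 59.8%) against 47.1%, inside the interval. At the stop codon the imDC share was 6.15% (2.69 to 11.8%) against 12.4% and the DCreg share 5.63% (2.60 to 10.4%) against 11.7%, both above the interval, and the maDC share 10.2% (6.35 to 15.3%) against 14.7%, inside it. Peaks of 1 gene share a transcript, and with 1 peak per gene the coding share was 39.1% for imDC, 46.1% for maDC and 46.5% for DCreg. The shares over all peaks were not reduced to 1 peak per gene, so these values cannot be set against them. At the 5′ end, 5′UTR and start-codon peaks were 11.5% and 12.3% of member peaks in imDC, 7.65% and 8.67% in maDC and 3.75% and 6.88% in DCreg, and over all peaks 11.6% and 14.6%, 7.37% and 11.1%, and 4.69% and 6.66%, the same order.

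**Figure D3:**
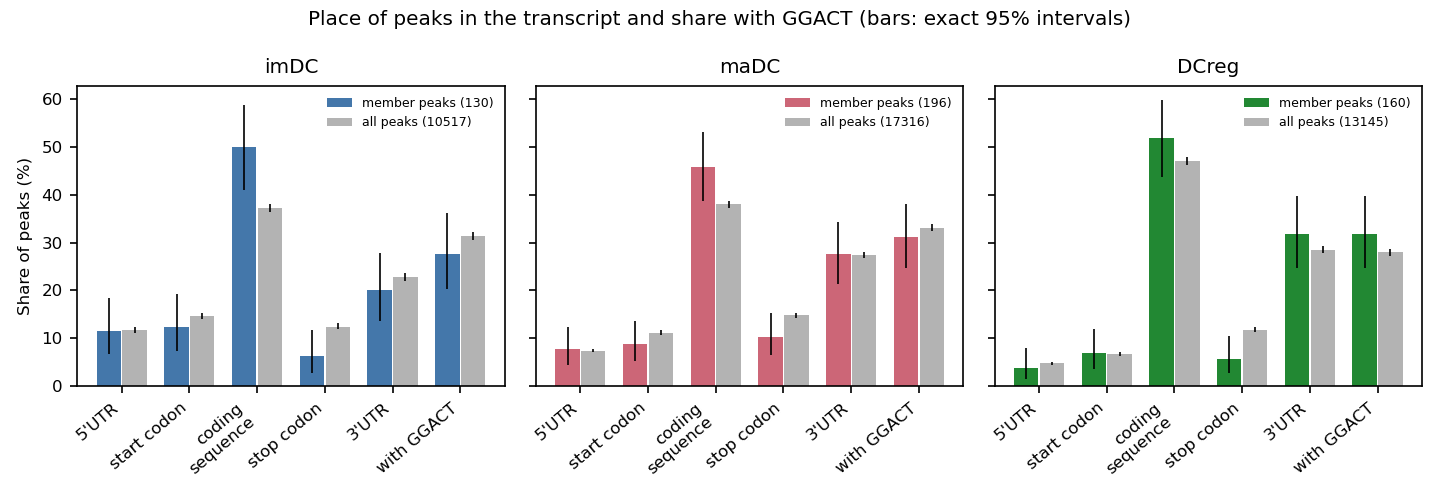
Share of peaks (%) in each part of the transcript, and with GGACT, for member peaks (coloured) and all peaks of the list (grey) in the 3 DC types; error bars are exact 95% binomial intervals, which cover the counting of peaks only. The coding share of members stands at 50%, 45.9% and 51.9% and the 5′UTR share falls from 11.5% in imDC to 3.75% in DCreg, as it does over all peaks (11.6% to 4.69%).

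Joined across lists, the member peaks made 262 sites, of which 81 (30.9%, against 23.5% of 23427 sites in all transcripts) were in all 3 lists, 60 in maDC alone (22.9% against 25.7%), 38 in DCreg alone (14.5% against 17.0%) and 24 in imDC alone (9.16% against 6.62%). Peaks were joined by mutual best overlap, so where the lists divided a run differently, a peak could count as alone though another list overlapped it. For example, the maDC peak of Dcp1a at bases 2179 to 2462 of the transcript lay within the imDC peak at 1863 to 2465. Fewer of the imDC sites at the 5′ end than elsewhere had a peak in DCreg, a difference that was not tested: 13 of 31 imDC sites in a 5′UTR or at a start codon (41.9%) were also in the DCreg list, against 45 of 64 in the coding sequence (70.3%) and 21 of 26 in the 3′UTR (80.8%). Over all transcripts the shares were 37.7%, 66.0% and 66.6%, the same order. Seen from DCreg, 68.4% of its 19 member sites at the 5′ end and 43.8% of its 48 in the 3′UTR were also in imDC. Over all transcripts these shares were close, at 64.4% and 43.3%. In the CCR4-NOT group 13 of 30 sites were in maDC alone, and in the decapping group 8 of 17, whereas 16 of 33 eIF4F sites were in all 3 lists.

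At peaks shared by 2 lists, the replicate values were compared by limma over all shared peaks, with Benjamini-Hochberg adjustment. Between maDC and imDC, 101 of 8300 shared peaks were in members; none passed the adjusted p threshold of 0.05, in members or in all (0%), while 4 member peaks and 294 peaks in all had an unadjusted p below it. The smallest adjusted p by limma was 0.982. The median difference was 0.27 in members and 0.21 over all shared peaks, and 69 of the 101 member peaks were higher in maDC; with each replicate centred on its median, which moved the overall median to -0.06, the split was 52 to 49. Both maDC values lay above both imDC values at 27 member peaks and below at 9, against 23.6% and 7.47% of all shared peaks. Among the largest member differences was that of Dcp1a, at 1.57 (SE 0.69), between peaks of unlike extent. For Tnrc6a, imDC stood at 1.03 and 2.42 and maDC at 2.87 and 3.44 (1.43, SE 0.68). Eif3a stood at 1.33 (SE 0.71) where imDC was at 2.78 and 2.57 and maDC at 4.02 and 3.99, and the Ago2 3′UTR site at 1.27 (SE 0.68). In the other direction Eif4e3 was lower in maDC by 0.99 (SE 0.68), Eif1 by 0.96 (SE 0.67), and the 5′UTR peak of Eif5 (2.97 and 2.75 in imDC, 2.40 and 1.75 in maDC) by 0.78 (SE 0.68). The start-codon peak of Eif4ebp2 was lower by 0.76 (SE 0.68), and the most distal 3′UTR peak of Tnrc6b, at 3.74 and 1.77 in imDC and 2.47 and 1.66 in maDC, by 0.69 (SE 0.67). Most of these differences depended on imDC replicate 1. With 1 replicate left out in turn, the difference ran from 0.77 to 2.37 for Dcp1a, 0.74 to 2.13 for Tnrc6a, 0.70 to 1.83 for Ago2 and 1.22 to 1.44 for Eif3a. On the lower side it ran from -1.42 to -0.56 for Eif4e3, -1.61 to -0.32 for Eif1, -1.10 to -0.46 for Eif5, -1.38 to -0.14 for Eif4ebp2 and -1.67 to 0.29 for Tnrc6b. The value without imDC replicate 1 was the end of the range nearest 0, or past it, for each of these except Eif3a and Eif5, whose end nearest 0 was that without imDC replicate 2 and without maDC replicate 2.

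**Figure D4:**
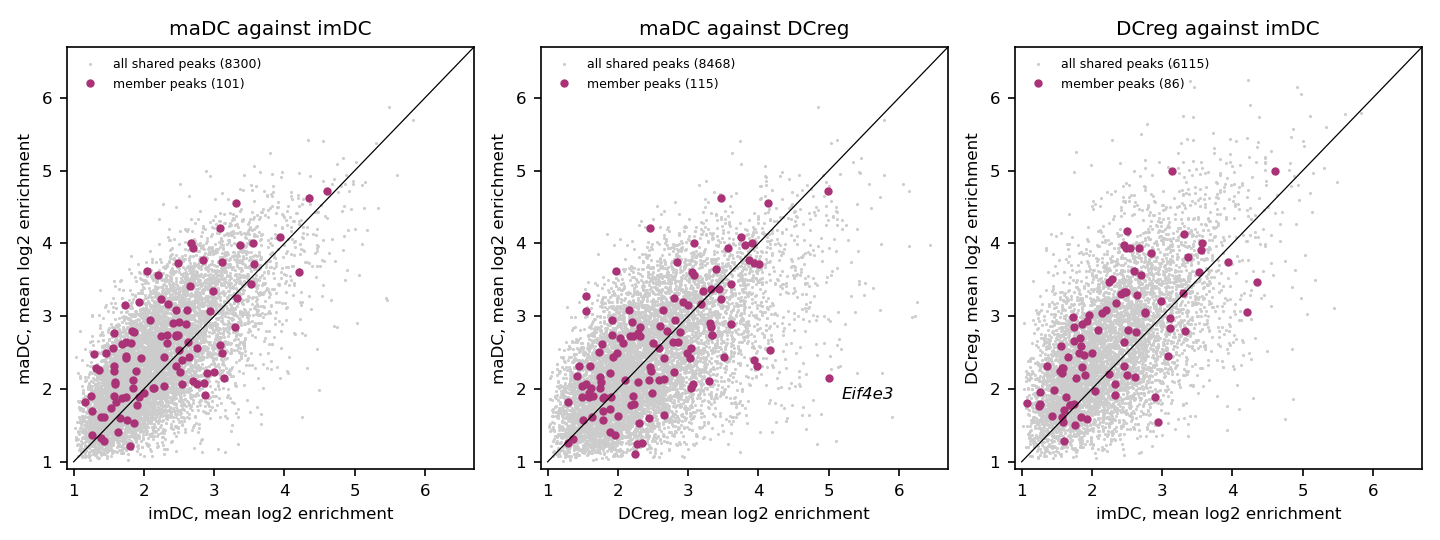
Mean log2 enrichment of the 2 replicates at shared peaks, one DC type against another, for all shared peaks (grey) and member peaks (purple); the line marks equal values. Eif4e3, named in the middle panel, was the only member peak past the threshold, with means of 2.15 in maDC and 5.00 in DCreg.

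Between maDC and DCreg, 115 of 8468 shared peaks were in members, and 1 member peak passed the threshold among 22 over all shared peaks (0.26%), the 22 being lower in maDC. It was the 3′UTR peak of Eif4e3, which encodes a cap-binding relative of eIF4E. Its values were 1.81 and 2.50 in maDC and 4.56 and 5.45 in DCreg, the highest in DCreg, and 3.57 and 2.71 in imDC, between the other types. The difference was -2.85 (SE 0.73, adjusted p = 0.0416 by limma with Benjamini-Hochberg adjustment). The peaks compared overlapped only in part, at bases 828 to 1002 in maDC and 789 to 945 in DCreg (786 to 943 in imDC). The lists divided the run at different points, so the values come from shifted stretches. Every maDC value was below every DCreg value, but the call did not hold without DCreg replicate 2 (-2.41, adjusted p = 0.202 by limma), without maDC replicate 1 (-2.51) or 2 (-3.19), without the trend in the variance (adjusted p = 0.107 by limma) or with the replicate number as a block (adjusted p = 0.476 by limma). The adjacent Eif4e3 peak, over or just after the stop codon, had a difference of the same sign, with 2.23 and 2.40 in maDC and 3.74 and 4.22 in DCreg (-1.66, SE 0.72; adjusted p = 0.625 by limma). The GGACT printed above lies at the border of the 2 peaks, listed with the stop-codon peak in maDC, with the 3′UTR peak in imDC and with neither DCreg peak.

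The other member peaks that were lower in maDC did not pass the test: Eif2s2 (-1.63, SE 0.73), Eif4a1 (-1.55, SE 0.72) and a coding peak of Eif4b (-1.18, SE 0.70), the cofactor of the eIF4A helicase, which was at 1.60 and 2.63 in maDC and 3.21 and 3.37 in DCreg. Neither did those higher in maDC, led by Pan2 (1.75, SE 0.73), Eif2ak1 (1.74, SE 0.67), Dcp1a (1.64, SE 0.70), Edc4 (1.52, SE 0.65) and Eif4g2 (1.15, SE 0.73). With 1 replicate left out in turn, Eif2s2 ran from -3.03 without maDC replicate 2 to -0.24 without maDC replicate 1, so its difference rested on 1 maDC library. Eif4a1 ran from -1.91 to -1.18, and Eif4b from -1.70 to -0.66, the latter without maDC replicate 1. The Eif4b peaks compared were of unlike extent, bases 1503 to 1693 in maDC and 1507 to 1873 in DCreg. In maDC the rest of this run lay in a further peak at 1694 to 2014 (2.12 and 2.74), so the Eif4b difference depends in part on where the run was divided. Pan2 ran from 0.91 without DCreg replicate 2 to 2.59, Dcp1a from 0.91 without maDC replicate 2 (0.95 without DCreg replicate 2) to 2.38 and Eif4g2 from 0.80 to 1.49. The ranges of Eif2ak1, 1.34 to 2.14, and of Edc4, 1.33 to 1.71, were narrower. In all, 59 member peaks were higher and 56 lower in maDC, with a median difference of 0.05 against -0.03 over all shared peaks. This median depended on the replicates, being 0.32 without DCreg replicate 1 and -0.24 without DCreg replicate 2. Both maDC values lay above both DCreg values at 23 member peaks and below at 20, against 14.6% and 21.5% of all shared peaks.

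Between DCreg and imDC, 86 of 6115 shared peaks were in members and none passed the threshold, in members or in all (0%; 3 member peaks and 385 in all had an unadjusted p under 0.05). The smallest adjusted p of a member was 0.782 by limma. The median difference was 0.47 in members against 0.31 over all shared peaks, and 65 of the 86 member peaks were higher in DCreg, 49 after each replicate was centred on its median, which moved the overall median to -0.03. Both DCreg values were above both imDC values at 32 member peaks and below at 3, against 30.2% and 7.18% of all shared peaks. The largest differences were at the 3′UTR peaks of Eif4e3 (1.86, SE 0.84, and 1.53, SE 0.76), Eif2s2 (1.67, SE 0.80), a coding peak of Eif3a (1.45, SE 0.75, with 2.79 and 2.18 in imDC and 3.73 and 4.14 in DCreg) and Eif4a1 (1.40, SE 0.75). The Eif3a peaks compared were of unlike extent, bases 3689 to 4164 in imDC and 3876 to 4153 in DCreg. In the other direction stood Edc4 (-1.39, SE 0.67), Cnot6 (-1.16, SE 0.78), the coding peak of Eif3b, an eIF3 scaffold subunit (-1.02, SE 0.72, with 3.31 and 2.50 in imDC and 2.58 and 1.19 in DCreg), Eif4g2 (-0.87, SE 0.83) and Pan2 (-0.64, SE 0.76). Of these 5, 3 lay in a 5′UTR, a count of extremes that was not set against the other shared peaks. With 1 replicate left out in turn, Eif2s2 ran from 0.72 without imDC replicate 2 to 2.61 without imDC replicate 1, and the other differences on the higher side stayed between 1.14 and 2.30. Eif3b ran from -1.72 to -0.33 without DCreg replicate 2 (-0.62 without imDC replicate 1), Eif4g2 was at -0.24 without imDC replicate 1, and Pan2 ran from -1.47 to 0.20 without DCreg replicate 2. Edc4 ran from -1.74 to -1.05, and Cnot6 moved less, reaching -1.32 at most. This comparison shares its DCreg and imDC values with the comparisons above, so the values are given side by side and their likeness is not a result.

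**Figure D5:**
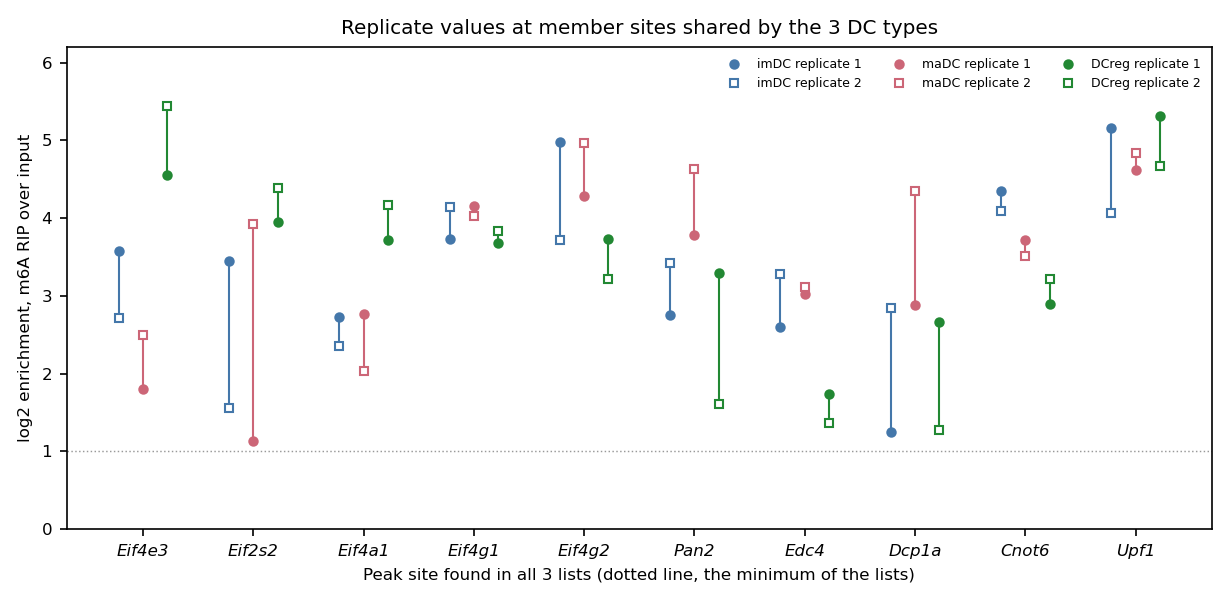
log2 enrichment of m6A RIP over input in each replicate (filled circle, replicate 1; open square, replicate 2; a line joins the pair) at 10 member sites present in all 3 lists. The DCreg pair of Eif4e3 (4.56 and 5.45) stands above the other 4 values, that of Edc4 (1.74 and 1.36) below them, and the imDC and maDC pairs of Eif2s2 are far apart.

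Related genes outside the members were counted from lists. Of 12 poly(A)-binding proteins and partners, maDC marked all, imDC 11 and DCreg 10. Of 15 regulators of initiation, 9, 13 and 12 had a peak in the order imDC, maDC, DCreg, which the next counts also follow, and of 13 elongation and termination factors 6, 10 and 9. Only 5, 8 and 7 of 16 genes of the exosome and the SKI complex, which degrade mRNA from the 3′ end, and 5 in each list of 12 decapping partners had one. Among the m6A readers, Ythdf3 carried a coding peak at 3.47 and 4.17 in imDC, 4.21 and 5.71 in maDC and 5.30 and 5.01 in DCreg, both imDC values lying below the DCreg values. Ythdf2, which binds CCR4-NOT, had its common coding peak at 1.01 and 2.15, 2.52 and 2.68, and 2.59 and 2.03, and Ythdf1 had peaks in maDC and DCreg only.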

How the data were processed

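RNA of 3 DC types was profiled by meRIP-seq in 2 replicates each. The authors deposited 1 peak list per type, with log2 enrichment of IP over input per replicate. Per their methods, TopHat2 2.0.14 placed the reads on mm10, and reads lengthened to 150 bp were counted on the longest isoform in windows of 100 bp set every 10 bp. Windows under 1/20 of the top window were left out, IP was tested against input with edgeR (version not given in the sources used here), while windows with an FDR under 1% whose log2 enrichment reached 1 in each replicate were merged. The enrichment compares a window with the median window of its transcript in IP and in input, so it is normalized within each transcript and library and gives no transcript level. Depth is unknown, and 95% intervals are exact (Clopper-Pearson) and cover counting error of the peaks alone.

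Members were matched by symbol; 80 of 92 annotated protein-coding genes that match the rule had a peak. Peaks of 2 lists were shared when, within a transcript, each was the other's best overlap and 50% or more of the shorter one was covered. Their log2 values were compared, 2 replicates against 2, with limma 3.58.1 (lmFit, eBayes with trend, two-sided) in R 4.3.3 over all shared peaks, and the procedure was tested on simulated data. Python 3.11.15, pandas 2.3.3 and SciPy 1.17.1 did the rest. Genome positions, exons and sequences come from RefSeq on GRCm38.p6, for the 71 members whose transcript passed a check, and the others have no position here. Peaks had to end within the transcript, each listed GGACT had to be in place, and no peak without a listed GGACT could hold one. A transcript with no listed GGACT could thus pass with no motif matched.

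Named genes were the member peaks past the threshold, the 5 largest shared differences per direction and comparison, up to 10 members per direction with a peak in only 1 type of a pair, the 5 strongest peaks per list, the 5 members with most peaks, and a set of core factors; further members were named after their values were seen. The separate results of 1 member gene, and some sequences, are not reported here, though the gene is in every count. Members, gene lists and this rule were chosen with earlier results of these data known. Alternatives were higher enrichment minimums, gene symbols of the annotation, 1 peak per gene, a motif search in the reference, other overlap rules, no variance trend, median centring, a replicate block, single-peak transcripts and leaving out each replicate.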

Additional observations from a re-analysis of the deposited data

How the results depend on the processing

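Peak counts moved with the enrichment minimum. The shares of all transcripts were not counted at the raised minimums, so the member counts there cannot be set against them. With the minimum raised to 1.5, 22 members had a peak in maDC and not imDC and 20 in DCreg and not imDC; at 2, members with a peak numbered 32 in imDC, 50 in maDC and 43 in DCreg, with 22 in maDC and not imDC and 4 the reverse, and other counts stayed within 1.5 times. With 1 peak per gene, 5′UTR and coding peaks were 18.8% and 39.1% of imDC peaks, 3′UTR peaks 19.7% of maDC peaks, and GGACT lay in 39.5% of maDC peaks; all other shares, including those from a motif search in the reference, stayed inside the interval of the main value. Over all shared peaks, maDC against DCreg gave 22 calls, 0 without the variance trend, 1 with the replicate block, 11 at an overlap of 80% of the longer peak, 8 at the minimum of 1.5, 1 over single-peak transcripts, and 1 to 135 with a replicate left out (135 without DCreg replicate 1, 8 without DCreg replicate 2, 1 and 2 without maDC replicate 1 and 2). The member call among them, Eif4e3, fell to 0 without the trend and with the block, and ranged from 0 to 1 with a replicate left out, with the same direction throughout; member calls were also 0 at 80% overlap and over single-peak transcripts, where this pair of peaks is left out by construction and was not tested. DCreg against imDC gave 2 calls after centring, 1 at the minimum of 1.5 and 0 to 2 with a replicate left out; maDC against imDC 0 to 107, the 107 without imDC replicate 2. None of those was in a member. With the replicates paired crosswise, added after the data were seen because same-numbered deviations correlated at -0.12 and -0.35, maDC against imDC gave 1 call and DCreg against imDC 39. Among other named member peaks, 2 turned direction: Tnrc6b in maDC against imDC (0.29 without imDC replicate 1, -1.67 without imDC replicate 2) and Pan2 in DCreg against imDC (0.20 without DCreg replicate 2, -1.47 without DCreg replicate 1). The causes were not tested. Same-numbered replicates did not deviate together, so the numbers were not taken to pair the samples, and the peak lists could not be rebuilt without one replicate. With 2 replicates a type, the spread between them limits which differences can be called, and depth is unknown.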

Other observations

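The CCR4-NOT subunit gene now named Cnot9 appears in the lists under its older symbol Rqcd1 and is therefore not among the 80 members. It had a start-codon peak in imDC (1.44 and 2.09) and maDC (1.77 and 1.31), a 3′UTR peak in maDC (2.74 and 2.32) and no peak in DCreg. Counting it by the annotation's symbol gives 77 genes for maDC, 71 for DCreg and 65 for imDC.

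Eif2ak2, the double-stranded RNA-activated eIF2α kinase PKR, was left out of the members. It was marked in its 3′UTR alone, with 4 peaks in maDC and 2 in each of the other lists. At the site common to the 3 lists the values were 2.09 and 1.47 in imDC, 1.59 and 2.21 in maDC and 1.77 and 2.74 in DCreg, with overlap among the types. Each of the other 3 kinases of eIF2α had a peak in the coding sequence or over the stop codon, where Eif2ak2 had none. Eif2ak3 in every list and Eif2ak1 in DCreg also had a 3′UTR peak.

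Of the 92 annotated genes that match the rule, 12 had no peak under the annotation's symbol. Apart from Cnot9, they include 6 eIF3 subunit genes (Eif3d, Eif3e, Eif3h, Eif3i, Eif3k and Eif3m), Dcp1b, Eif2b3, Eif4a3l1, Eif4e1b and Eif5a2.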
